A study of Mus musculus with 4 samples.

Results

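The cyclin, CDK, CDC and centromere genes are a set of 101 protein-coding genes chosen by their symbols, out of 21887 protein-coding genes on chromosomes 1 to 19, X and Y. A gene belonged to the set when its symbol was Cdk or Cdc followed by a digit, or began with Cenp or with one of the cyclin stems Ccna to Ccnh, Ccnk, Ccnl or Ccnt. Binding of the transcription factor Deaf1 near these genes was read from ChIP-seq (chromatin immunoprecipitation followed by sequencing) of C2C12, an established mouse line of myoblasts, the precursor cells of skeletal muscle. The cells were in medium with fetal bovine serum, and the labels name no treatment or genetic change. The protocol describes formaldehyde fixation and also calls the assay native ChIP-seq, which usually means no fixation; that conflict was not resolved. There were 4 libraries, 2 precipitated with an antibody against Deaf1 and 2 inputs without antibody. The files analysed were the peak list of each Deaf1 library and 1 combined list for the pair. Nothing in the labels says whether the libraries came from separate cultures, and peak lists hold no expression with which the myoblast label could be checked.

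Cyclins are regulatory subunits that switch on cyclin-dependent kinases (CDKs). Some pairs drive entry into DNA synthesis and mitosis, while others phosphorylate RNA polymerase II or splicing factors and act in transcription. Genes named Cdc were found through yeast cell division mutants and are a mixed group, which includes subunits of the anaphase-promoting complex (APC/C), a ubiquitin ligase that ends mitosis, and Cdc42, a small GTPase of the cytoskeleton. CENP proteins build the centromere and the inner kinetochore, to which spindle microtubules attach. Deaf1 binds DNA through a SAND domain that recognises the letters TTCG.

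A gene was counted as bound when a peak lay within 1 kb of either end of its annotated span. By the combined list, 19 of the 101 genes were bound (18.8%), against 6.93% of the 21786 other protein-coding genes. The peaks of replicate 1 marked 19 genes too, against 7.47% of other genes. Those of replicate 2 marked 29 genes (28.7%), against 11.2% of other genes. The 19 genes bound in the combined list were also bound in each replicate, another 10 had a peak in replicate 2 alone, and 72 had no peak in any list. The combined list gives each region a score from the irreproducible discovery rate (IDR), and a score of at least 540 stands for an IDR of at most 0.05. Regions with such a score marked 9 of the genes (8.91%), against 3.1% of other genes. These shares are descriptions: the set was chosen with earlier results of these data known, and no test of enrichment was run.

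The promoters shown first are those on which the results below turn. Each is the RefSeq window from 250 bases before to 50 bases after a transcription start on build GRCm38.p6, written 5′ to 3′ along the gene's strand. Capitals mark TTCG, the Deaf1 core, and CCGGAAGT, the site bound by ETS family transcription factors, each on either strand (CGAA and ACTTCCGG are the reverse complements). Cdk9 and Ccnt1 encode the kinase and the cyclin of the elongation factor P-TEFb, and both carried a region at their start. Cdk11b had the second highest mean fold enrichment of the set, and Cdk10 and Cdc16 have an ETS match close to the summit. Cenph is an inner kinetochore gene with a region at its start, and Cdc27 had the highest enrichment of the set. Ccnb1, the neighbour of Cenph, had no peak within 1 kb and is shown for contrast. The windows lie at chr2:32712735-32713034 (minus strand), chr15:98567687-98567986 (minus), chr4:155624604-155624903 (plus), chr8:123224591-123224890 (plus), chr8:13757406-13757705 (plus), chr13:100775850-100776149 (minus), chr11:104550571-104550870 (minus) and chr13:100786437-100786736 (minus).
Cdk9: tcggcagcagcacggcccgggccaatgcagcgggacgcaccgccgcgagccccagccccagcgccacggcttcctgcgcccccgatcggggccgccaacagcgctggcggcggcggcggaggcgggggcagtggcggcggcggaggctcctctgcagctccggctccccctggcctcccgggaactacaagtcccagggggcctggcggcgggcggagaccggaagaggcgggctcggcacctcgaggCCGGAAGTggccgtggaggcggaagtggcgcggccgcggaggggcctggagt
Ccnt1: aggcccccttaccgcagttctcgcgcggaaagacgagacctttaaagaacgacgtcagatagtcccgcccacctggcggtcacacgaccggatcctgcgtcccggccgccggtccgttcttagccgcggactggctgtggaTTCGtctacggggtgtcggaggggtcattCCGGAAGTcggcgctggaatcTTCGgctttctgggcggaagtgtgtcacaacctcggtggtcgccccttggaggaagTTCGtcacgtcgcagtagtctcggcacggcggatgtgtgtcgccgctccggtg
Cdk11b: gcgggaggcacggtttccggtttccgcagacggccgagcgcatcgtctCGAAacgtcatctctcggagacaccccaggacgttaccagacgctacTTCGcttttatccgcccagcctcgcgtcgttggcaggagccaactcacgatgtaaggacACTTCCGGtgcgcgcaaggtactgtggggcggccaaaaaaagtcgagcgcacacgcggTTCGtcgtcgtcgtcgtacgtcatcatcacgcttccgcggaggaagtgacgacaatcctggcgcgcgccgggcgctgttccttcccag
Cdk10: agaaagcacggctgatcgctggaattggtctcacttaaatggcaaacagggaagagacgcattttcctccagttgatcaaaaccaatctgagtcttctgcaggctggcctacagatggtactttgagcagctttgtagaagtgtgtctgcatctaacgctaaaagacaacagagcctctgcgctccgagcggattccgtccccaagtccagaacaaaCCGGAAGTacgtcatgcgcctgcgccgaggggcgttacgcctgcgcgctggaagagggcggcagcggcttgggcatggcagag
Cdc16: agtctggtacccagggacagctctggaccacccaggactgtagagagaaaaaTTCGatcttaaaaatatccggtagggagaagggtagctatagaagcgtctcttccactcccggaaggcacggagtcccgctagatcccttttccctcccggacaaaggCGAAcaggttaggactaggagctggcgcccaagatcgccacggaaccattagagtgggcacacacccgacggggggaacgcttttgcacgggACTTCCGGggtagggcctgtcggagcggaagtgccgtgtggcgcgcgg
Cenph: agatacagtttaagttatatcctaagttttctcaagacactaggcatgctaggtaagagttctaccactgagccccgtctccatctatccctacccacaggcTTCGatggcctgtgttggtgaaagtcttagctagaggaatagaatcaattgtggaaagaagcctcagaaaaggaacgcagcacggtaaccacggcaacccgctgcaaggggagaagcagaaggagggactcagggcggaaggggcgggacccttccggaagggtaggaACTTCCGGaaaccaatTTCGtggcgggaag
Cdc27: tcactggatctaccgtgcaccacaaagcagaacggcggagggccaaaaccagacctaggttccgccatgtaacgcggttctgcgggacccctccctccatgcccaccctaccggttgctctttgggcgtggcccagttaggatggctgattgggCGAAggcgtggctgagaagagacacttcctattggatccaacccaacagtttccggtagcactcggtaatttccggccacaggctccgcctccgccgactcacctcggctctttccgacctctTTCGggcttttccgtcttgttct
Ccnb1: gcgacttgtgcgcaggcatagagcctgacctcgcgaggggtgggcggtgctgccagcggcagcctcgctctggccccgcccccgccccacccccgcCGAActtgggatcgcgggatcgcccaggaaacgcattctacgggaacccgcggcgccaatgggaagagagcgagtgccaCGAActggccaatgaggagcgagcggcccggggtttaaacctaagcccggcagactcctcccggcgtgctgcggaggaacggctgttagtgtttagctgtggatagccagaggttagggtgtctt

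Strength is given below as the fold enrichment of ChIP over local background at the peak summit, which is the authors' value from their peak caller, and as the number of ChIP fragments stacked at that summit. The fragment number was recovered from the deposited fold and p, and its 95% exact Poisson interval covers counting error only. Replicate 1 had 1860 peaks and replicate 2 had 3126. The median summit held 22 and 23 fragments, and the combined list held 1550 regions. The lowest background at any summit was 1.80 fragments in replicate 1 and 2.09 in replicate 2.

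At the 19 bound genes the mean fold enrichment of the 2 replicates ran from 3.66 to 28.6 with a median of 9.11. At 1230 regions near the ends of other genes the median was 8.04, with a range from 3.37 to 46.4. Replicate 2 gave the higher fold at 12 of the 19 genes and replicate 1 at 7, and the ratio of replicate 2 to replicate 1 had a median of 1.17 and ran from 0.662 to 2.06. At regions of other genes its median was 1.13. The summits of the replicates lay a median of 10 bp apart and at most 165 bp apart. The genes therefore sat inside the cloud of other gene-end regions, with Cdc27 alone far up the diagonal.

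**Figure D1:**
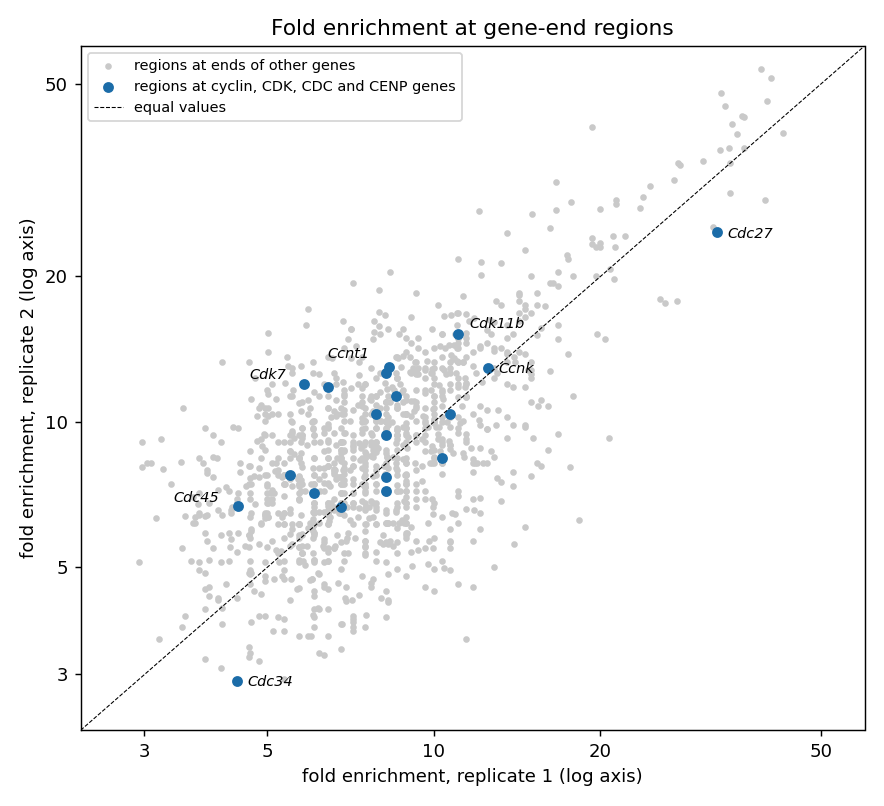
Fold enrichment in replicate 1 (x axis) and replicate 2 (y axis), both on log axes, of each region of the combined list near a gene end. Blue points are the 19 regions at cyclin, CDK, CDC and centromere genes, grey points the 1230 regions at other genes. Cdc27 stands at 32.5 and 24.7, and Cdc34 is the lowest with 4.40 and 2.91.

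**Figure D2:**
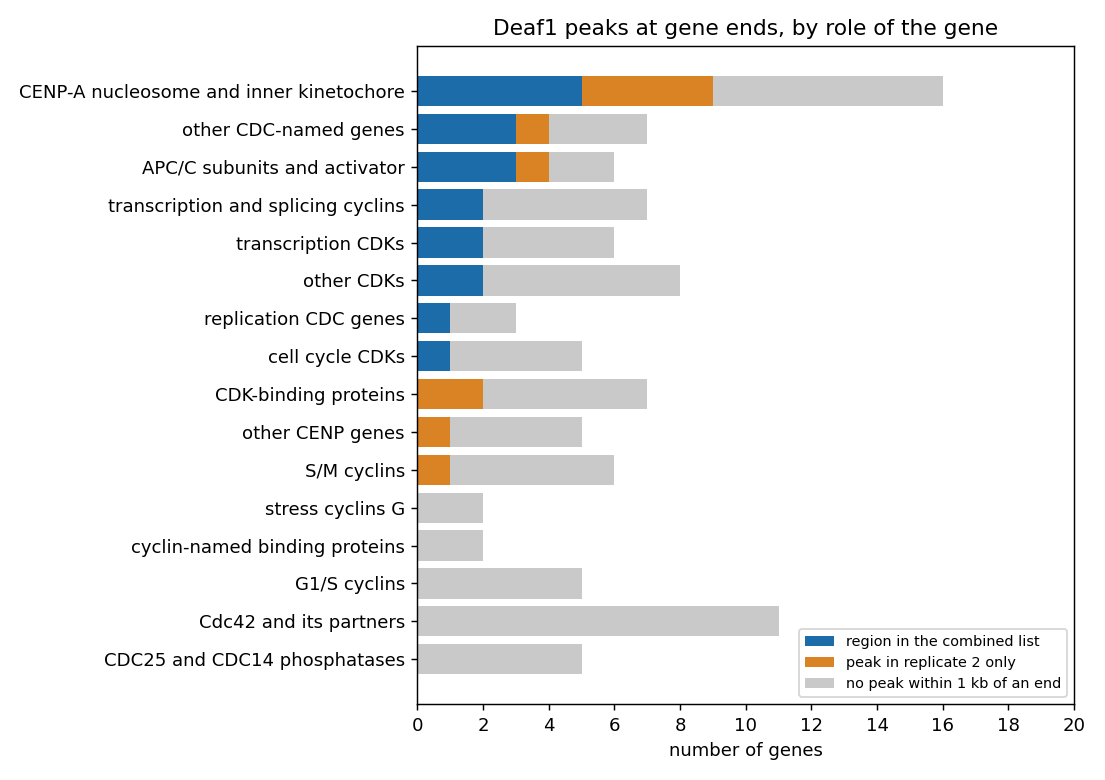
Number of genes (x axis) in each of 16 roles (y axis) with a region in the combined list, with a peak in replicate 2 only, or with no peak within 1 kb of an end. The inner kinetochore genes hold the most bound genes, 5 in the combined list and 9 in replicate 2, and 5 roles have none in any list.

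The classical cell cycle cyclins had no reproducible region. With 6.93% of other genes bound in the combined list, an absence in groups of 5 and 6 genes cannot be told apart from that share. Cyclins D and E start the passage from G1 into S phase, and none of the 5 genes Ccnd1, Ccnd2, Ccnd3, Ccne1 and Ccne2 had a peak in any list. The nearest peak of replicate 2 lay 1329780 bp from the nearer end of Ccnd1 and 163834 bp from Ccne1. Of the 6 cyclins of S phase and mitosis, Ccna1, Ccnb1, Ccnb2, Ccnb3 and Ccnf had no peak within 1 kb of an end. Ccna2, cyclin A2 of S phase and G2, had a peak in replicate 2 only, with a fold enrichment of 6.15 and 18 fragments (10.7 to 28.4). Its summit lay inside the gene, 935 bp from the nearer end, and the edge of that peak was 892 bp from the end, close to the limit of 1 kb. Both cyclin G genes, Ccng1 and Ccng2, were without a peak.

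Among the 7 cyclins of transcription and splicing, Ccnk and Ccnt1 were bound in both replicates, against 6.93% of other genes in the combined list. Ccnk encodes cyclin K, the partner of CDK12 and CDK13. Its region at chr12:108179346-108179853 had a fold enrichment of 12.5 in replicate 1 (35 fragments, 24.4 to 48.7) and 13.0 in replicate 2 (39 fragments, 27.7 to 53.3), which averaged 12.7 ± 0.31 (SD, n = 2). The score was 785, and both summits fell on the same base, 103 bp upstream of the RefSeq start. That summit was 290 bp from an end of the neighbouring Setd3 and 327 bp from the end of Ccnk, so the region cannot be given to Ccnk alone.

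Cyclin T1, encoded by Ccnt1, is the regulatory subunit of P-TEFb. Its region at chr15:98567511-98567956 held 51 fragments in replicate 1 (38.0 to 67.1) and 54 in replicate 2 (40.6 to 70.5), close to each other. The fold enrichments were 8.29 and 13.0, a mean of 10.6 ± 3.3 (SD, n = 2), because the background was 5.27 fragments in replicate 1 and 3.24 in replicate 2. With a score of 830 it had the highest score of the set. The summits lay 55 and 64 bp upstream of the start, with the second TTCG of the window between them.

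No region was counted at Ccnc, Ccnh, Ccnl1, Ccnl2 or Ccnt2. Ccnl2, a cyclin of splicing, had a replicate 2 peak 2026 bp inside its annotated span (fold enrichment 6.15, 18 fragments). The summit of that peak was 155 bp upstream of the RefSeq start of Ccnl2, which lies inside the span, so a rule on span ends did not count it.

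Of the 5 kinases that drive the cell cycle, Cdk1, Cdk2, Cdk4 and Cdk6 had no peak within 1 kb. With 6.93% of other genes bound in the combined list, absences in so small a group cannot be told apart from that share. The nearest replicate 2 peak was 1608527 bp from Cdk1, 43392 bp from Cdk2, 65185 bp from Cdk6 and 2656 bp from Cdk4. Cdk7, which activates other CDKs and is also the kinase of the general transcription factor TFIIH, was bound. Its fold enrichment was 5.82 in replicate 1 (16 fragments, 9.15 to 26.0) and 12.0 in replicate 2 (36 fragments, 25.2 to 49.8). This was the widest gap between replicates in the set, a ratio of 2.06, and the score was 218. The counting intervals overlapped narrowly, and the summits, 43 and 41 bp upstream of the start, were 2 bp apart.

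Among the 6 kinases of transcription, Cdk9 and Cdk11b were bound, and Cdk8, Cdk12, Cdk13 and Cdk19 were not. Of other genes, 6.93% were bound in the combined list, and 6 genes are too few to set this group against the kinases of the cell cycle. CDK9 releases paused RNA polymerase II as the kinase of P-TEFb. Its region at chr2:32712732-32712849 had a fold enrichment of 8.21 in replicate 1 (22 fragments, 13.8 to 33.3) and 7.69 in replicate 2 (29 fragments, 19.4 to 41.6). Both summits fell on the same base, 8 bp upstream of the start, and the score of 521 was just under 540. Cdk11b encodes a kinase of pre-mRNA splicing that pairs with cyclin L. At Cdk11b the fold enrichment was 11.1 in replicate 1 (30 fragments, 20.2 to 42.8) and 15.2 in replicate 2 (46 fragments, 33.7 to 61.4), which averaged 13.1 ± 2.9 (SD, n = 2). The score was 794. Its summits lay 13 and 8 bp upstream of the start.

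Of the other 8 CDKs, Cdk5 and Cdk10 were bound, against 6.93% of other genes in the combined list. CDK5 is best known from neurons, where it works with p35 and p39. Its fold enrichment was 8.21 in replicate 1 and 7.18 in replicate 2 (22 and 27 fragments), but the replicate 2 summit was 22 bp from an end of Slc4a2 and 152 bp from the end of Cdk5. Cdk10 had 8.21 and 9.39 (22 fragments, 13.8 to 33.3, and 28 fragments, 18.6 to 40.5), with summits 20 and 19 bp upstream of its start and a score of 590. Of the 7 genes for CDK-binding proteins, Cdk2ap2 and Cdk5rap3 had a peak in replicate 2 only, with fold enrichments of 3.59 and 6.87. In replicate 2, 11.2% of other genes had a peak. The Cdk2ap2 peak was among the weakest of the set, with 13 fragments (6.92 to 22.2).

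**Figure D3:**
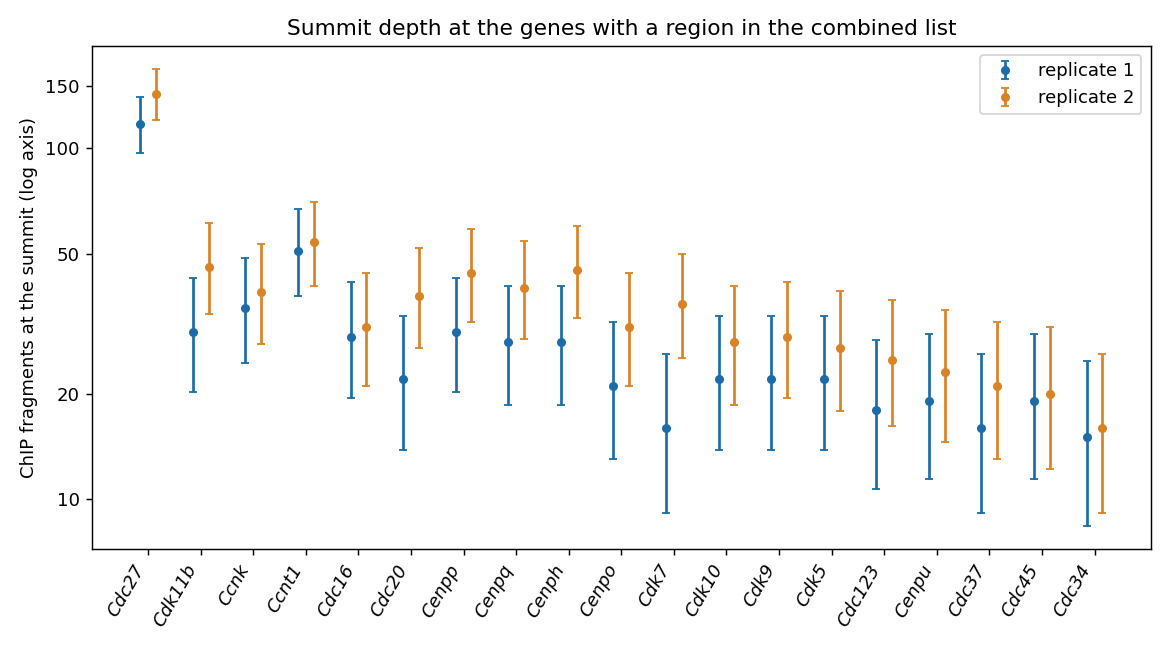
ChIP fragments at the summit (y axis, log axis) for the 19 genes with a region in the combined list (x axis, ordered by mean fold enrichment), replicate 1 in blue and replicate 2 in orange. Bars are 95% exact Poisson intervals. Cdc27 holds 117 and 143 fragments, and the other genes lie between 15 and 54.

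APC/C genes held the strongest region of the set. Of the 6 genes for subunits and activators that the symbol rule takes in, Cdc16, Cdc20 and Cdc27 were bound in both replicates. Cdc26 was bound in replicate 2 only, and Cdc23 and Cdc20b in neither. Of other protein-coding genes, 6.93% were bound in the combined list and 11.2% in replicate 2. Genes of the complex with other symbols are outside this count. Cdc27 encodes the APC3 subunit that recruits the activators. Its region at chr11:104547117-104553737, 6621 bp wide, covered the transcription start. The summit held 117 fragments in replicate 1 (96.8 to 140) and 143 in replicate 2 (121 to 168). The fold enrichment was 32.5 and 24.7, a mean of 28.6 ± 5.5 (SD, n = 2), and the next highest mean of the set was 13.1. These summits ranked 18th of 1860 and 39th of 3126 peaks by fold, and lay 9 and 60 bp downstream of the start. The score of the region was 121, the lowest the list gives (an IDR of 0.511), which 377 of the 1550 regions share. In replicate 1 the region held 6 separate peaks.

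Further peaks flanked the start of Cdc27. Within the gene span and 10 kb on each side there were 11 peaks in replicate 1 and 22 in replicate 2, with median fold enrichments of 5.70 and 4.46. In replicate 1 they lay within 9547 bp of each other, and in replicate 2 they were spread over 61782 bp. The span of Cdc27 itself held 4 peaks in replicate 1 and 12 in replicate 2, and no other gene of the set held more than 1. Among other protein-coding genes, 30 held at least 4 in replicate 1 and 7 held at least 12 in replicate 2.

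Cdc16 encodes the APC6 subunit. Its fold enrichment was 10.7 in replicate 1 (29 fragments, 19.4 to 41.6) and 10.4 in replicate 2 (31 fragments, 21.1 to 44.0), the mean being 10.5 ± 0.25 (SD, n = 2), with a score of 678. The summits lay 9 bp downstream and 7 bp upstream of the start. CDC20 activates the complex at the start of anaphase. Its gene had 8.21 in replicate 1 (22 fragments, 13.8 to 33.3) and 12.6 in replicate 2 (38 fragments, 26.9 to 52.2), with a score of 621. The summits were 148 bp apart, 35 and 183 bp upstream of the start. Cdc26, a small subunit of the complex, had a replicate 2 peak of 6.48 with its summit on the end of Prpf4 and 137 bp from that of Cdc26.

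The 11 genes of Cdc42 and its partners had no peak in any list, and the nearest to Cdc42 was 30604 bp from its end. The 5 genes of the Cdc25 and Cdc14 phosphatases had none either. With 6.93% of other genes bound in the combined list, neither absence can be told apart from that share. Of 3 CDC genes of DNA replication, Cdc45, a subunit of the replicative helicase, was bound weakly. It had 4.43 in replicate 1 (19 fragments, 11.4 to 29.7) and 6.70 in replicate 2 (20 fragments, 12.2 to 30.9), with the lowest score of 121. Cdc6 and Cdc7 had no peak.

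Of the 7 remaining CDC-named genes, Cdc123, Cdc34 and Cdc37 were bound in both replicates and Cdc37l1 in replicate 2 only. Among other genes, 6.93% were bound in the combined list and 11.2% in replicate 2. CDC37 is the co-chaperone that delivers kinases to HSP90, and CDC34 is a ubiquitin-conjugating enzyme of SCF ligases. Cdc37 had fold enrichments of 6.07 and 7.12 with 16 and 21 fragments. Cdc123, needed for assembly of the translation factor eIF2, had 6.78 and 6.66 with 18 and 25 fragments. Cdc34 was the weakest gene of the set with 4.40 and 2.91 (15 and 16 fragments), and its 2 summits were 165 bp apart. By contrast, the replicate 2 peak at Cdc37l1, which replicate 1 lacked, had 9.71 with 29 fragments (19.4 to 41.6). A peak missing from the list of replicate 1 was not always a weak one in replicate 2.

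By the combined list 5 of 21 Cenp genes were bound (23.8%) and in replicate 2 10 of 21 (47.6%), against 6.93% and 11.2% of other genes. For Cdc genes the counts were 7 of 32 (21.9%) and 9 of 32 (28.1%), and for Cdk genes 5 of 26 (19.2%) and 7 of 26 (26.9%). Genes named Ccn were closest to the other genes, with 2 of 22 (9.09%) and 3 of 22 (13.6%). All but 1 of the 10 Cenp genes with a replicate 2 peak belong to the CENP-A nucleosome and inner kinetochore, the exception being Cenpf. In that group 5 of 16 genes were bound in the combined list and 9 of 16 in replicate 2. The 5 were Cenph, Cenpo, Cenpp, Cenpq and Cenpu, and Cenpk, Cenpl, Cenpt and Cenpx were the 4 with a peak in replicate 2 only. Cenpa, which encodes the centromeric histone, had no peak nearer than 232880 bp in replicate 2. Cenpc1, Cenpi, Cenpm, Cenpn, Cenps and Cenpw had none within 1 kb either.

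CENP-O, CENP-P, CENP-Q and CENP-U are partners in a single complex of the inner kinetochore, and the genes of all 4 were bound in both replicates. They were singled out after their values had been seen. Cenpq was the most even, with 10.4 in replicate 1 (28 fragments, 18.6 to 40.5) and 8.42 in replicate 2 (40 fragments, 28.6 to 54.5) and a score of 691. Its summits lay 38 and 27 bp downstream of the start, and an end of Mmut lay 138 bp away. Cenpo had 7.85 and 10.4 (21 and 31 fragments) with a score of 615. At Cenpp the values were 8.53 and 11.3 (30 and 44 fragments), but the replicate 2 summit was 4 bp from an end of Nol8 and 124 bp from that of Cenpp. Cenpu was the weakest of them with 5.50 and 7.77 (19 and 23 fragments). The scores of Cenpp and Cenpu were 199 and 315, so at a score of at least 540 only Cenpo and Cenpq of the 4 were bound. The fifth partner, CENP-R, is encoded by Itgb3bp, outside the symbol rule, and had a peak in replicate 2 only (5.38, 20 fragments).

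Cenph encodes a subunit that links the inner kinetochore together. Its region at chr13:100775738-100775950 had a fold enrichment of 6.42 in replicate 1 (28 fragments, 18.6 to 40.5) and 11.8 in replicate 2 (45 fragments, 32.8 to 60.2), with a score of 583. Both summits were within 5 bp of the start. The 4 inner kinetochore genes seen in replicate 2 only had fold enrichments of 7.42 at Cenpk, 6.48 at Cenpt, 3.77 at Cenpx and 3.19 at Cenpl. The low fold at Cenpl came with 30 fragments over a background of 8.70. Cenpf, an outer kinetochore and nuclear matrix protein gene, had 7.32 with 24 fragments.

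Regions shared with a neighbouring gene were common, in the set as elsewhere. At 7 of the 19 genes (36.8%) the region also lay within 1 kb of an end of another protein-coding gene, against 44.0% of the other bound genes. The neighbours were Setd3 at Ccnk, Nudt5 at Cdc123, Ufd1 at Cdc45, Slc4a2 at Cdk5, Ptrhd1 at Cenpo, Nol8 at Cenpp and Mmut at Cenpq. In 3 of these, Ccnk, Cdk5 and Cenpp, the replicate 2 summit was closer to the neighbour.

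Summits gathered at transcription starts rather than at the far ends of the genes. Of the 19 genes, 18 have a start in the RefSeq promoter table, and their replicate 1 summits lay a median of 40.5 bp from it. All 18 were within 1 kb of a start, 13 within 100 bp, with 15 upstream and 3 downstream. In replicate 2, 26 of 27 genes with a start had their summit within 1 kb of it, at a median of 60 bp. The exception was Cenpt, whose summit lay at -3067 bp from its listed start. That summit was 11 bp from an end of the annotated span of Cenpt and 28 bp from an end of Thap11.

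**Figure D4:**
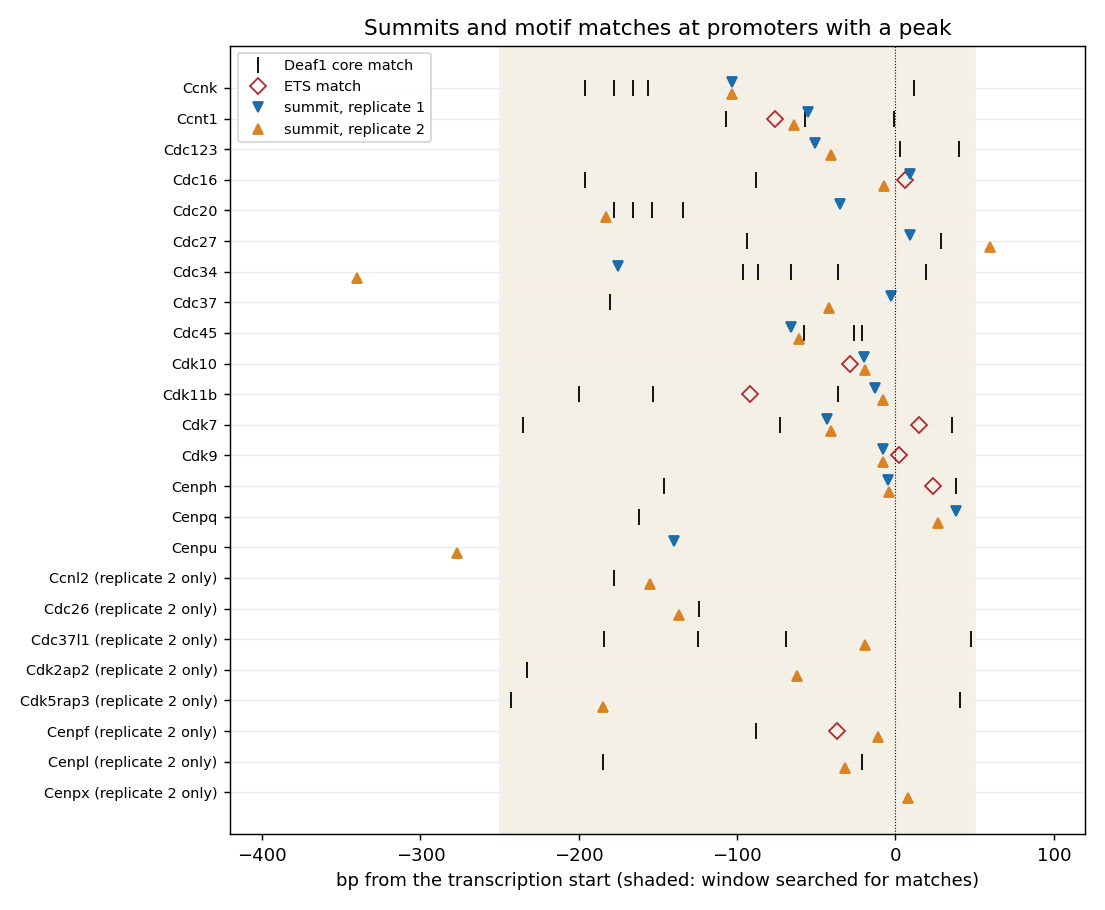
Position of peak summits and motif matches in bp from the transcription start (x axis, negative upstream) for the promoters of the set that hold a region of the combined list or, in the lower rows, a replicate 2 peak only. Triangles are summits, ticks are matches to the Deaf1 core, diamonds are ETS matches, and the shaded band is the 300-base window searched. At Cdk9, Cdk10, Cdc16 and Ccnt1 the diamond sits within 12.5 bp of the replicate 2 summit.

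The sequence of these promoters differed in which motifs it held. The search used 1 RefSeq window per gene, that of the start nearest the gene's 5′ end, and both strands. Windows were found for 89 of the 101 genes, and 16 of them overlapped a region of the combined list. The ETS site CCGGAAGT was present in 7 of the 16 promoters with a region (43.8%) and in 2 of the 73 without (2.74%). It was in 1 of the 65 with neither a region nor a replicate 2 peak in the window (1.54%). The 7 were Ccnt1, Cdc16, Cdk10, Cdk11b, Cdk7, Cdk9 and Cenph. The same held for other genes, with 384 of 1094 promoters with a region (35.1%) and 530 of 16309 without (3.25%). Over all 17492 promoters the share was 5.28%. The centre of the match lay 9.5 bp from the replicate 2 summit at Cdk9, 10.5 bp at Cdk10, and 12.5 bp at Ccnt1 and at Cdc16. At Cenph, Cdk7 and Cdk11b it was 27.5, 55.5 and 84.5 bp away.

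The Deaf1 core TTCG is short and was frequent everywhere. It was found in 13 of the 16 promoters with a region (81.2%) and in 49 of the 73 without (67.1%), and in 49.0% of all promoters. The mean number of matches per promoter was 2.25 and 1.15. Cdk9, Cdk10 and Cenpu had a region and no TTCG in the window, and the promoter of Ccnb1, without a peak, had 2 matches. Where a summit lay in the window and a TTCG was present, 3 of 11 promoters of the set had a match within 25 bp of the replicate 2 summit (27.3%), and 27.2% of 699 promoters of other genes did. For CCGGAAGT the corresponding counts were 4 of 7 (57.1%) and 262 of 366 (71.6%).

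Motifs known from cell cycle promoters did not all lean the same way. E2F sites, taken as TTTCCCGC, TTTCGCGC, TTTGCCGC or TTTGGCGC, were in 0 of the 16 promoters with a region and in 9 of the 73 without (12.3%), against 2.94% of all promoters. The cell cycle homology region TTTGAA, found in promoters of mitotic genes, was in 2 of 16 (12.5%) and 18 of 73 (24.7%), against 16.5% of all. Its variant TTCGAA, which contains TTCG on both strands, was in 0 of 16 and 2 of 73. CCAAT, the NF-Y site, was in 10 of 16 (62.5%) and 33 of 73 (45.2%), against 39.2% of all. The consensus of NRF1, a palindrome, was in 0 of 16 and 1 of 73. The number of CpG dinucleotides hardly separated the set's promoters with a region from those without, with medians of 23.5 and 23 per window. The median was 22 in the 65 with neither a region nor a replicate 2 peak. For other genes the medians were 23 with a region and 12 without. With 16 promoters, a share moves by several percentage points with each gene.

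**Figure D5:**
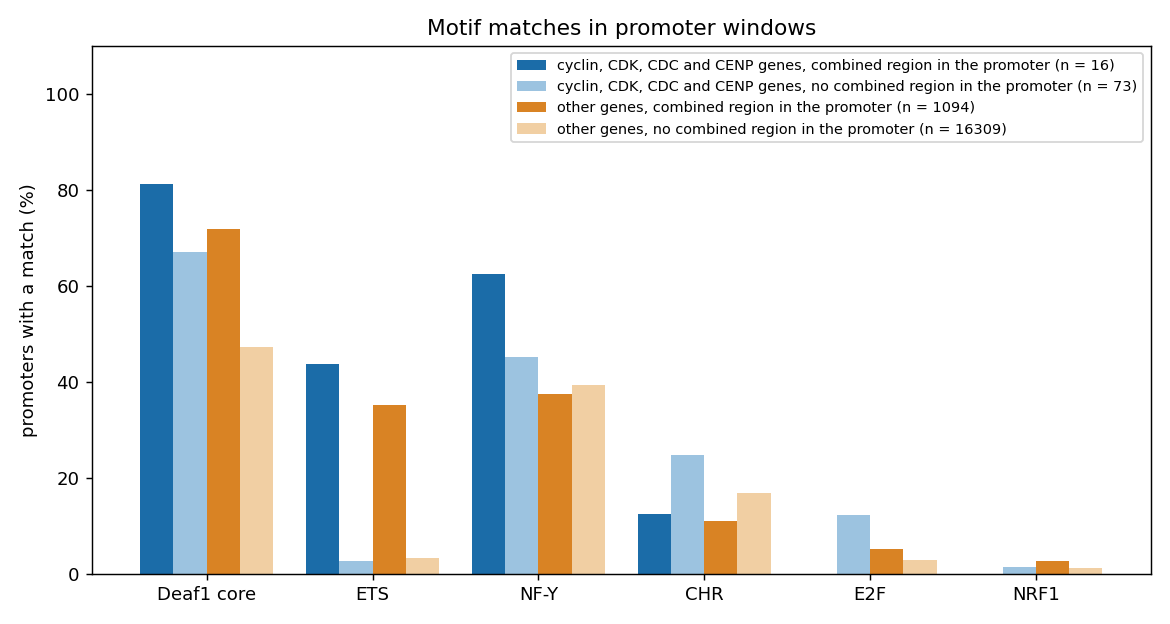
Share of promoter windows with a match (y axis, percent) for 6 motifs (x axis: the Deaf1 core, the ETS, NF-Y, cell cycle homology region (CHR), E2F and NRF1 sites), in the genes of the set (blue) and other genes (orange), with a region of the combined list (dark) or without (light). The ETS bars stand at 43.8% and 35.1% with a region and at 2.74% and 3.25% without.

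Genes of the same pathways outside the symbol rule were read from 8 lists of 91 genes. By the combined list 9 were bound (9.89%), by replicate 1 10, and by replicate 2 17 (18.7%), against 6.93%, 7.47% and 11.2% of genes outside the symbol rule, of which these lists are a part. Of 17 outer kinetochore genes, Nuf2 and Nsl1 were bound. Nuf2, a subunit of the microtubule-binding NDC80 complex, had fold enrichments of 7.92 and 8.83, and Nsl1, of the MIS12 complex, had 9.28 and 12.8. Hjurp, the chaperone that deposits CENP-A, was among the bound genes of the list for the chromosomal passenger complex and CENP-A loading, whereas the gene of CENP-A itself had no peak. Hjurp had 3.75 in replicate 1 and 6.75 in replicate 2, over high backgrounds of 9.66 and 7.74 fragments, and a score of 333.

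Of 15 mitotic kinase and checkpoint genes, Mastl alone was in the combined list, with 11.3 and 13.3, and Mad2l1 had a peak in replicate 1 only. The Mastl summits lay 459 and 464 bp upstream of its start. Whether an end of another gene lay nearer was not examined for the pathway lists. MASTL, the Greatwall kinase, protects mitotic phosphorylations from phosphatase PP2A. Cks1b, Cks2 and Cdca5 were the 3 bound among 11 Cdca genes and CDK subunits. Cks1b was the weakest of them, with 3.85 and 4.52 (13 and 14 fragments) and the lowest score of 121. Cks2, a small CDK-binding protein, had 12.1 and 9.86, but its summits lay 1009 and 1016 bp outside the gene and 6439 and 6446 bp downstream of its RefSeq start. It was counted because the edge of the region fell within 1 kb of the gene's far end. Cdca5 encodes sororin, which guards sister chromatid cohesion, and had 9.28 and 12.6. E2f4, a mainly repressive E2F, was the only bound gene of 13 Rb and E2F genes (10.4 and 10.0). None of the 7 CDK inhibitor genes, of 8 DREAM complex genes or of 10 other cyclin genes was in the combined list. Lin37 of the DREAM complex and the cyclin genes Ccny and Ccnyl1 had a peak in replicate 2 only. With 6.93% of other genes bound, absences in such short lists cannot be told apart from that share.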

How the data were processed

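Deaf1 ChIP-seq was analysed from the peak lists of 2 ChIP libraries and their combined list. No file of the 2 input libraries was analysed here. Build mm10, BWA 0.7.17-r1198, MACS2 2.1.2 and FastQC 0.11.8 are named per the submitters' processing notes. Removal of duplicates is not given in the sources used here. The deposited fold enrichment is a ratio, ChIP over local background at the summit, from the authors' peak caller, and the deposited p and q are −log10 values. The score of the combined list is the authors' IDR score for the pair. Its 6 columns of values for single samples were not used.

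Groups came from the sample titles. Fragments and background at a summit were recovered from fold = (pileup + 1)/(background + 1) and the Poisson p, with an error of at most 5.07e-05 in −log10 p. On simulated data 100% of 484 pileups were recovered. For a gene with a region, the strongest overlapping peak of each replicate was used. Gene spans and promoters came from RefSeq tables of GRCm38.p6, the assembly that mm10 names. Python 3.11.15, pandas 2.3.3 and scipy 1.17.1 were used. The study has a single condition, so no test between groups exists. The members, lists and motifs were chosen with earlier results of these data known. Genes named were all those with a peak at an end or inside the span, and Ccnd1, Ccne1, Ccna2, Ccnb1, Cdk1, Cdk2, Cdk4, Cdk6, Cdk9, Cdc20, Cdc42 and Cenpa whatever their values. Of the pathway lists, 1 gene is not reported here by name.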

Additional observations from a re-analysis of the deposited data

How the results depend on the processing

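The number of bound genes moved most with the choice of list. Requiring a score of at least 540 left 9 of the 19 genes and took the share of other genes from 6.93% to 3.10%. The genes lost were Cdc123, Cdc27, Cdc34, Cdc37, Cdc45, Cdk5, Cdk7, Cdk9, Cenpp and Cenpu. With either replicate left out, 19 to 29 genes had a peak in the remaining list. Windows of 500 bp and 2 kb, the whole gene span, the summit rule and replicate 1 alone each gave 19. Giving each region to its nearest gene alone gave 16, reciprocal overlap of at least 50% gave 15, and a window of 5 kb gave 22, by adding Ccnb1, Ccnf and Cdk4. The use of RefSeq starts only, chosen after seeing the data, gave 18 of 89. Under every one of these settings the share of other genes was lower than that of the set. At a −log10 q of at least 5, replicate 1 marked 18 genes and replicate 2 marked 25, and the median fold enrichment at the genes' ends in replicate 2 went from 7.69 to 8.42. The pathway genes with a peak ran from 10 to 17 with a replicate left out, and 7 (7.69%) had a region at a score of at least 540, against 3.08% of the genes outside the rule and the lists. The share of promoters with a region that held CCGGAAGT ran from 33.3% to 43.8% with a replicate left out, and was 62.5% of 8 promoters at a score of at least 540. These settings for the pathway genes and for CCGGAAGT were also chosen after seeing the data. No paired analysis was possible because the inputs have no values here and the ChIP libraries form a single group. At 15 to 54 fragments a summit for the genes of the combined list other than Cdc27, counting error limits any ranking of single genes.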

Other observations

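Several core cell cycle genes lay a short way outside the window of 1 kb, next to a region nearer to a neighbour, and for Ccnb1, Ccnf and Cdk4 the region was far from the gene's own start. The region at the start of Cenph was 2789 bp from an end of Ccnb1 in replicate 2 and was the peak nearest to that gene, with its summit 10583 bp downstream of the Ccnb1 start. A region 2378 bp from an end of Ccnf, with fold enrichments of 9.28 and 7.95, had its summit 134 bp from an end of Tedc2 in replicate 2 and 30609 bp downstream of the Ccnf start. Cdk4 had a region 2656 bp away, with 5.24 and 5.13 (14 and 19 fragments), whose nearest protein-coding gene end belonged to Tspan31 and whose replicate 2 summit was 6441 bp downstream of the Cdk4 start. The replicate 2 peak nearest Cdc23, an APC/C subunit gene, was 3415 bp away and lay 6 bp from an end of Brd8.

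The 10 genes with a peak in replicate 2 only had a median fold enrichment of 6.48 there, with a range from 3.19 to 9.71, and the 19 genes bound in both had a median of 10.4. Their median summits held 22.5 and 31 fragments. Of the genes of the set with a replicate 2 peak, 65.5% also had one in replicate 1, and 62.7% of the other genes with a replicate 2 peak did.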
